A study of Mus musculus with 6 samples.

Results

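The endothelial list held 38 genes that mark or serve the cells lining blood vessels, and 30 of the 38 could be measured in these heart cell preparations. A listed gene was kept when the platform annotation gave it a probe of its own and that probe was detected (detection p under 0.05) on 2 or more of the 6 arrays. The whole series held 10538 genes that passed the same rule. By role, 7 of 9 junction and surface genes were kept, 7 of 8 growth factor receptor genes, 2 of 3 genes of G protein signalling, 4 of 5 genes of secreted proteins, 4 of 5 transcription factor genes, 3 of 4 capillary surface genes, and 3 of 4 genes of enzymes, channels and adaptors.

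RNA came from cardiomyocyte-enriched populations of C57BL/6J mice and was hybridised to 6 one-colour Illumina bead arrays, 2 for each of 3 groups. The sham group had sham surgery, with no vehicle or drug named. The TAC_DMSO group had transverse aortic constriction (TAC), a narrowing of the aorta that raises the pressure load on the left ventricle, and received DMSO. The TAC_BIX group had the same constriction and received BIX-01294, an inhibitor of the histone H3 lysine 9 methyltransferases G9a and GLP, for 1 week from osmotic pumps under the skin. The labels do not state how long DMSO was given, how many mice stood behind each array, or their ages. Because sham had no named vehicle, constriction and vehicle cannot be told apart in any comparison with sham, and TAC_BIX against sham joins constriction with the drug. With 2 arrays per group, p-values reflect only how far these arrays differ among themselves.

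Capillaries run beside nearly every cardiomyocyte, and their endothelial cells deliver oxygen and fatty acids to it. Vascular endothelial growth factor (VEGF) from the surrounding tissue acts through the receptors KDR (VEGFR2) and FLT1 (VEGFR1), angiopoietins act through TEK (TIE2), and the ETS factors ERG and FLI1 together with the SOX factors SOX7, SOX17 and SOX18 maintain endothelial gene expression. The preparations are named for cardiomyocytes, so endothelial transcripts here came from whatever vessel cells were carried through the isolation. In such bulk RNA, a different number of endothelial cells and a different amount of each RNA per cell cannot be told apart.

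Of 45281 probes, an array detected 36.7% to 40.9%, and mean signals ran from 296 to 439. Values below are log2 signals after background correction and quantile normalization; an offset of 16 added before the logarithm shrinks the differences of dim genes. The lowest detected signal was 4.80 to 4.99, depending on the array. Among the 12 measured cardiomyocyte markers of 13 listed, all 12 were detected on every array, and their summed signal was 223270 and 242910 on the sham arrays, 207582 and 220072 on the TAC_DMSO arrays, and 231199 and 230985 on the TAC_BIX arrays. Many of these markers lay close to the highest log2 value of 14.98, where normalized values can differ little. Similar sums therefore do not show similar cardiomyocyte content. Precision is limited by the small number of arrays.

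Most defining genes of the list were detected, and a few were not. Pecam1, Cdh5, Tek and Vwf were detected on all 6 arrays. Kdr, the main VEGF receptor gene, was detected on 3 arrays by its 1 kept probe and lay close to the floor. Of the 8 genes not kept, Clec14a, Ecscr, S1pr1, Apln, Erg and Fabp4 were not well above background on any array. A dim or undetected probe does not show that its transcript was scarce. Of 4 Robo4 probes only 1 was kept, and it measured 8.29 to 9.87. Flt4, the lymphatic VEGF receptor gene, lay just outside the rule, with its best probe detected on 1 array at 5.03. Ly6a had no probe of its own in the annotation used here. Just inside the rule lay Acvrl1, a receptor of the TGF-beta family, which was detected on the 2 TAC_BIX arrays (4.89 and 4.96) and measured 4.44 to 4.68 on the other 4 arrays. Because a gene could pass on the strength of the group in which it is high, counts over the 30 genes describe the genes that passed and stand for no more than that.

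Most measured endothelial genes had higher mean signals after constriction than in sham, with or without the drug. The median difference over the 30 genes was 0.48 log2 for TAC_DMSO minus sham, 0.66 for TAC_BIX minus sham and 0.58 for the mean of TAC_DMSO and TAC_BIX minus sham, beside medians of -0.01, 0.00 and -0.02 over all 10538 genes. The difference was above 0 for 26 of 30 genes in TAC_DMSO minus sham (21 of 30 without sham replicate 2), beside 48.5% of all genes. It was above 0 for 25 of 30 in TAC_BIX minus sham, counting Cldn5 at 0.00, beside 49.6%, and for 25 of 30 in the mean of both constricted groups minus sham, beside 48.3%. These comparisons share the sham arrays and are not independent of each other. In at least 1 of these comparisons the sign of Cdh5, Cldn5, Kdr, Tek, Ptprb, Eng, Acvrl1, Sox7, Vwf, Plvap, Nos3 and Aqp1, none of them called, changed under some alternative. No test was run on the list as a unit, and genes on 1 array share that array's RNA.

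**Figure D1:**
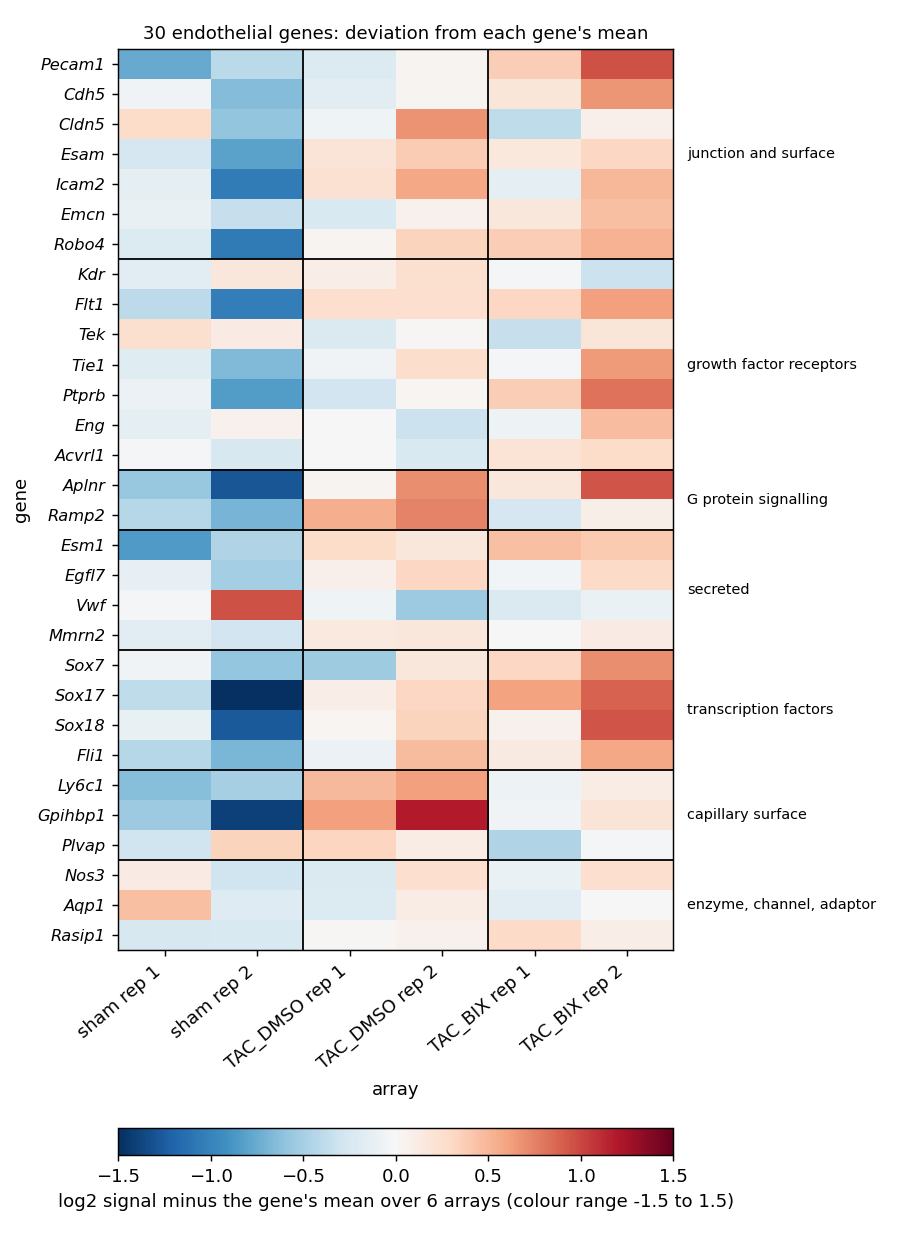
Deviation of each of the 30 measured endothelial genes (rows, grouped by role) from its own mean over the 6 arrays (columns), in log2 signal; colours run from blue (below the mean) to red (above it), with values beyond -1.5 or 1.5 drawn at the end of the scale. The sham columns are mostly blue, with sham replicate 2 lowest for 20 genes, and TAC_BIX replicate 2 is highest for 15.

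By the median SD, the 2 arrays of a group lay further apart in the endothelial genes than in all genes. In sham, replicate 2 lay below replicate 1 for 22 of 30 genes, with a median gap of -0.41. The median SD between the 2 sham arrays was 0.35 for the endothelial genes and 0.14 for all genes. In TAC_DMSO, replicate 2 lay above replicate 1 for 25 genes (median gap 0.23, median SD 0.19 beside 0.16 for all genes), and in TAC_BIX for 27 genes (median gap 0.34, median SD 0.24 beside 0.15). The widest gaps within a group were those of Sox18, at -1.15 in sham and 0.88 in TAC_BIX, and of Cldn5 in TAC_DMSO, at 0.73. Sham replicate 2 held the lowest value of 20 genes, and leaving it out moved the median from 0.48 to 0.31 for TAC_DMSO minus sham, from 0.66 to 0.46 for TAC_BIX minus sham, and from 0.58 to 0.35 for the mean of both minus sham.

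Taking all 4 constricted arrays against sham, 7 of the 30 genes rose and 0 fell at an adjusted p under 0.05. Over all genes tested, 2.45% rose and 2.18% fell by the same rule (4.63% in all). The 7 were Flt1, Aplnr, Ramp2, Esm1, Sox17, Ly6c1 and Gpihbp1. They spanned 5 of the 7 role groups, from receptors to a transcription factor, and rose between 1.80-fold and 2.74-fold. Between TAC_BIX and sham, 4 of 30 rose and 0 fell (2.74% and 3.91% of all genes), namely Pecam1, Flt1, Esm1 and Sox17 (6.65% of all genes were called in either direction). Between TAC_DMSO and sham, 0 of 30 were called, beside 43 of 10538 genes (0.408%), while 13 of the 30 and 2364 of all genes had an unadjusted p under 0.05. Between TAC_BIX and TAC_DMSO, 0 of 30 and 0 of all genes (0%) were called, with 6 and 2090 at an unadjusted p under 0.05. Vwf was the sole gene of the 30 that was lower against sham at an unadjusted p under 0.05. A gene called in TAC_BIX against sham and not in TAC_DMSO against sham was not thereby shown to differ between the drug and the vehicle.

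These calls depended on single arrays. For the mean of both constricted groups minus sham, 7 genes became 0 without sham replicate 1, sham replicate 2, TAC_BIX replicate 1 or TAC_BIX replicate 2, 1 without TAC_DMSO replicate 1 and 4 without TAC_DMSO replicate 2. For TAC_BIX minus sham, 4 genes became 0 without either sham array or without TAC_BIX replicate 2, and 1 without TAC_BIX replicate 1. Each of these fits has fewer arrays to estimate the spread from, and the differences of the called genes stayed above 0 in all of them.

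**Figure D2:**
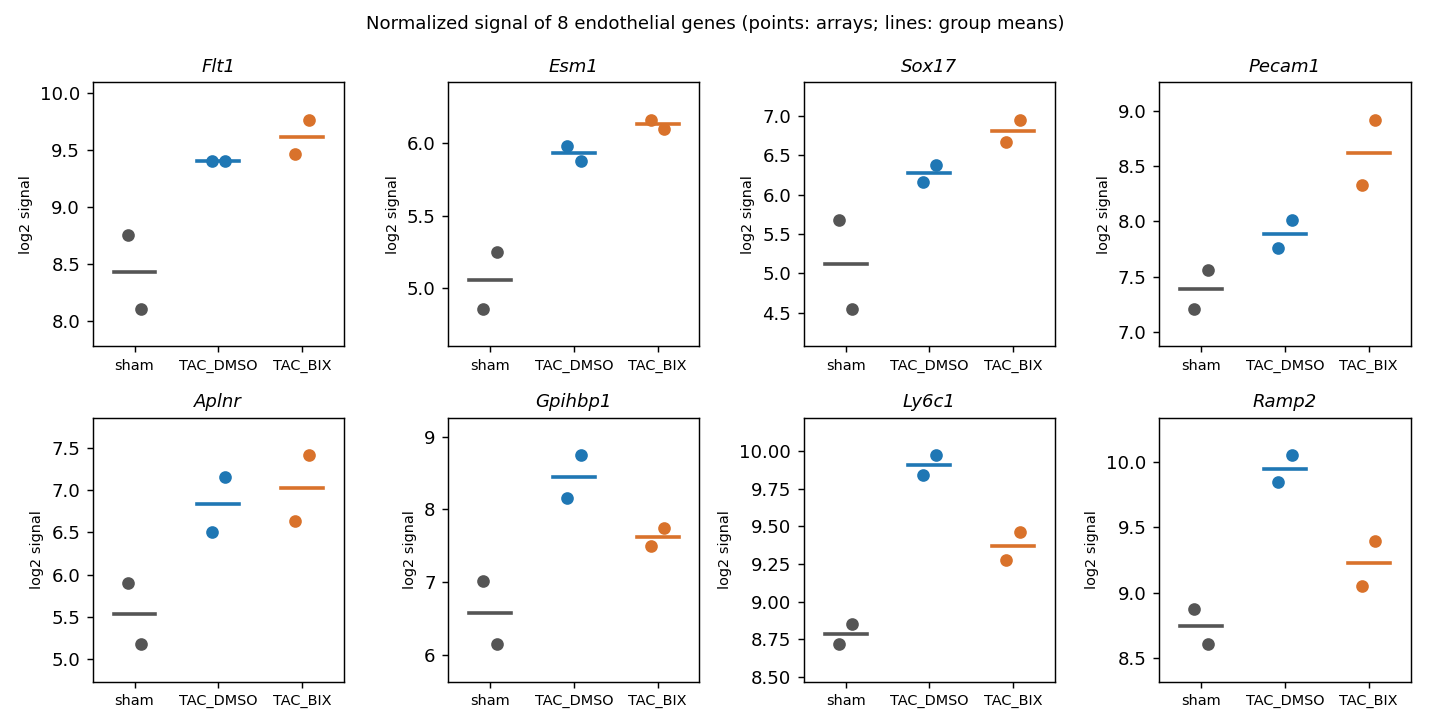
Normalized log2 signal of the 8 endothelial genes called in any comparison, with points for the 2 arrays of each group and lines for the group means. In all 8 genes the 4 constricted arrays lie above both sham arrays; in Gpihbp1, Ly6c1 and Ramp2 the TAC_DMSO arrays lie above the TAC_BIX arrays, and in Flt1, Esm1, Pecam1 and Sox17 below them.

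Among the growth factor receptor genes, Flt1 alone passed the test against sham. FLT1 binds VEGF and limits how much of it reaches KDR. Flt1 measured 8.75 and 8.11 on the sham arrays, 9.40 and 9.40 on the TAC_DMSO arrays, and 9.46 and 9.76 on the TAC_BIX arrays. All 4 constricted arrays lay above both sham arrays, and the TAC_BIX arrays lay above the TAC_DMSO arrays by less than the gap within sham. Flt1 was 2.11-fold higher in the constricted groups together (1.08 ± 0.21 log2, SE, limma adjusted p = 0.0380, 3.85e-04 to 0.183 over 15 alternatives). In TAC_BIX it was 2.27-fold higher than in sham (1.18 ± 0.24, adjusted p = 0.0333, 4.19e-04 to 0.243 over the alternatives), and in TAC_DMSO the difference was 0.97 ± 0.24 (adjusted p = 0.0894). A second Flt1 probe, detected on 2 arrays and near the floor, gave 0.18 for the constricted groups together.

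The other receptor genes did not pass the test in any comparison. Kdr measured 4.68 and 5.01 on the sham arrays, 4.93 and 5.07 on the TAC_DMSO arrays, and 4.81 and 4.51 on the TAC_BIX arrays, where it was not well above background on either array. Sham overlapped each of the other groups, both TAC_DMSO arrays lay above both TAC_BIX arrays, and the difference between the constricted groups together and sham was -0.01 ± 0.17 (adjusted p = 0.972). Tek, the angiopoietin receptor gene, measured 8.26 and 8.15 on the sham arrays, 7.81 and 8.04 on the TAC_DMSO arrays, and 7.68 and 8.20 on the TAC_BIX arrays. It ran against most of the list, with differences of -0.28 ± 0.22 for TAC_DMSO and -0.27 ± 0.22 for TAC_BIX against sham (adjusted p = 0.485 and 0.473). Tie1, the TEK partner gene, differed by 0.53 and 0.73 (adjusted p = 0.301 and 0.148). Ptprb encodes VE-PTP, the phosphatase that restrains TEK. It measured 8.35 and 7.61 on the sham arrays, 8.16 and 8.47 on the TAC_DMSO arrays, and 8.81 and 9.26 on the TAC_BIX arrays, so that its highest values were the TAC_BIX arrays while sham and TAC_DMSO overlapped. The Ptprb difference was 1.05 ± 0.28 for TAC_BIX minus sham (adjusted p = 0.0695) and 0.72 ± 0.28 for TAC_BIX minus TAC_DMSO (adjusted p = 0.219). Eng, which encodes a co-receptor of BMP9 signalling, differed from sham by -0.12 ± 0.23 and 0.23 ± 0.23 (adjusted p = 0.792 and 0.568). Its partner Acvrl1 was not well above background in sham or TAC_DMSO, and no fold against sham is given for it.

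Both measured genes of G protein signalling rose with constriction. Aplnr encodes the receptor of apelin, a peptide that acts on vessels and on the strength of the heartbeat. Aplnr measured 5.90 and 5.18 on the sham arrays, 6.51 and 7.16 on the TAC_DMSO arrays, and 6.64 and 7.41 on the TAC_BIX arrays. The constricted arrays lay above sham and the constricted groups overlapped each other. The rise was 2.63-fold for the constricted groups together (1.39 ± 0.31, adjusted p = 0.0495, 3.06e-04 to 0.223 over the alternatives), and the call was lost on leaving out any array, with adjusted p = 0.223 without sham replicate 2. On the authors' processed values the difference for the constricted groups together was 0.43 (limma adjusted p = 0.113). The Aplnr difference in TAC_BIX against sham, 1.49 ± 0.36, missed the threshold (adjusted p = 0.0506). The apelin gene Apln itself was not well above background.

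Ramp2 encodes the partner protein that makes the calcitonin receptor-like receptor respond to adrenomedullin, a peptide needed for vessel integrity. It measured 8.88 and 8.61 on the sham arrays, 9.85 and 10.05 on the TAC_DMSO arrays, and 9.05 and 9.40 on the TAC_BIX arrays. The 3 groups did not overlap, with TAC_BIX between sham and TAC_DMSO. Ramp2 was 1.80-fold higher in the constricted groups together (0.84 ± 0.18, adjusted p = 0.0450, 6.27e-04 to 0.213 over the alternatives); each array left out took the adjusted p above 0.05, up to 0.213 without sham replicate 2. The TAC_DMSO difference from sham was 1.21 ± 0.20 (2.31-fold, adjusted p = 0.0544). Ramp2 had the smallest p of the list for TAC_BIX minus TAC_DMSO, at -0.72 ± 0.20 (adjusted p = 0.119).

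Of the secreted proteins' genes, Esm1 rose, and Vwf had the largest difference in the other direction. Esm1 encodes endocan, a proteoglycan that endothelial tip cells release during vessel sprouting. Esm1 measured 4.86 and 5.25 on the sham arrays, 5.98 and 5.88 on the TAC_DMSO arrays, and 6.16 and 6.10 on the TAC_BIX arrays. It was detected on 1 of the 2 sham arrays, so the floor may shrink its differences. The constricted replicates lay close together and above both sham arrays, and Esm1 had the smallest p of the list in both called comparisons. It was 1.97-fold higher in the constricted groups together (0.98 ± 0.17, adjusted p = 0.0286, 8.08e-04 to 0.151 over the alternatives) and 2.11-fold higher in TAC_BIX than in sham (1.08 ± 0.19, adjusted p = 0.0267, 6.65e-04 to 0.194). On the authors' processed values the TAC_BIX difference was 0.24 (adjusted p = 0.0750).

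Vwf, the gene of the clotting protein von Willebrand factor, which is made more in large vessels and veins than in capillaries, measured 8.93 and 9.91 on the sham arrays, 8.89 and 8.41 on the TAC_DMSO arrays, and 8.74 and 8.86 on the TAC_BIX arrays. Sham replicate 2 stood further above sham replicate 1 than the group means stood apart. The differences from sham were -0.77 ± 0.32 for TAC_DMSO and -0.62 ± 0.32 for TAC_BIX (adjusted p = 0.218 and 0.272). Egfl7, which encodes a matrix protein that guides vessel formation, differed by 0.51 and 0.44 (adjusted p = 0.212 and 0.234), although a dim probe for another of its transcripts gave -0.18 and -0.23. Mmrn2, a matrix protein gene of vessels, differed by 0.37 and 0.28 (adjusted p = 0.236 and 0.324).

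The SOX genes of the F group had higher means in both constricted groups than in sham, and Sox17 passed the test, while the sign of Sox7 in TAC_DMSO minus sham changed under some alternatives. SOX17 takes part in arterial identity. Sox17 measured 5.68 and 4.55 on the sham arrays, 6.16 and 6.38 on the TAC_DMSO arrays, and 6.67 and 6.95 on the TAC_BIX arrays. The 3 groups did not overlap and the lower sham array was below detection. Sox17 was 3.23-fold higher in TAC_BIX than in sham (1.69 ± 0.34, adjusted p = 0.0331, 1.44e-04 to 0.244 over the alternatives) and 2.68-fold higher in the constricted groups together (1.42 ± 0.30, adjusted p = 0.0451, 2.57e-04 to 0.165). Without sham replicate 2 the TAC_BIX difference was 1.15. Its size also depended on the processing: 1.06 with an offset of 50, 0.68 without background correction and 0.46 on the authors' processed values. A second Sox17 probe gave 0.91 and 0.88 for these comparisons. Its TAC_DMSO arrays (5.34 and 5.85) and TAC_BIX arrays (5.68 and 5.63) overlapped, with a difference of 0.06.

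Sox18 measured 7.21 and 6.06 on the sham arrays, 7.35 and 7.65 on the TAC_DMSO arrays, and 7.38 and 8.26 on the TAC_BIX arrays, with differences from sham of 0.87 ± 0.41 and 1.19 ± 0.41 (adjusted p = 0.263 and 0.123). Sox7 measured 7.54 and 7.02 on the sham arrays, 7.06 and 7.77 on the TAC_DMSO arrays, and 7.91 and 8.29 on the TAC_BIX arrays. Its TAC_DMSO arrays spread around sham and both TAC_BIX arrays lay above, with differences of 0.82 ± 0.29 for TAC_BIX minus sham and 0.69 ± 0.29 for TAC_BIX minus TAC_DMSO (adjusted p = 0.133 and 0.251). Sox7 probes disagreed: another bright probe gave 0.93 for TAC_BIX minus sham and a dim probe, detected on 3 arrays, gave -0.53. Fli1 was not well above background on either sham array. It was at least 1.28-fold higher in TAC_DMSO and at least 1.44-fold higher in TAC_BIX (adjusted p = 0.146 and 0.0723), where the bound sets the group mean against the lowest detected signal of the sham arrays. Its relative Erg was below detection throughout.

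The capillary surface genes Ly6c1 and Gpihbp1 had their highest values in TAC_DMSO. Ly6c1 encodes a small GPI-anchored surface protein of mouse capillary endothelium and some leukocytes. Ly6c1 measured 8.72 and 8.85 on the sham arrays, 9.84 and 9.97 on the TAC_DMSO arrays, and 9.28 and 9.46 on the TAC_BIX arrays. The 3 groups were separate, with replicates close together. It was 1.81-fold higher in the constricted groups together (0.85 ± 0.15, adjusted p = 0.0319, 3.32e-04 to 0.161 over the alternatives), and without sham replicate 1 the adjusted p was 0.161. Its TAC_DMSO difference of 1.12 ± 0.17 was the closest to the threshold in that comparison (adjusted p = 0.0539), and TAC_BIX lay below TAC_DMSO by -0.53 ± 0.17 (adjusted p = 0.160). Ly6c2 is nearly identical in sequence, so the probe may report both genes.

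Gpihbp1 encodes the protein that carries lipoprotein lipase across the capillary wall and holds it in the lumen. Gpihbp1 measured 7.01 and 6.15 on the sham arrays, 8.16 and 8.74 on the TAC_DMSO arrays, and 7.50 and 7.74 on the TAC_BIX arrays. Again TAC_BIX lay between the other groups without overlap. The rise was 2.74-fold for the constricted groups together (1.46 ± 0.27, adjusted p = 0.0355, 9.86e-05 to 0.167 over the alternatives). The differences of 1.87 ± 0.32 in TAC_DMSO and 1.04 ± 0.32 in TAC_BIX against sham did not pass (adjusted p = 0.0544 and 0.0920). A second Gpihbp1 probe measured 7.59 and 6.04 in sham and 7.55 and 6.93 in TAC_BIX, which overlap, with 7.91 and 8.21 in TAC_DMSO. Averaging the probes took the adjusted p of the constricted groups together to 0.0825. Plvap, the gene of the protein that forms the diaphragms of fenestrated vessels, differed from sham by 0.20 and -0.25 (adjusted p = 0.687 and 0.586).

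The promoter bases of the called genes are shown because ETS factors such as ERG and FLI1 bind sites built around the core GGAA and are known regulators of endothelial genes. RefSeq promoter sequences (build GRCm38.p6) were matched by symbol for 13 of the 30 genes, 3 of them among the 8 called in any comparison. The 100 bases before the annotated start, in the gene's direction, are printed with GGAA, or TTCC where the match is on the other strand, in capitals.
Esm1 (chr13:113209559-113209658, + strand): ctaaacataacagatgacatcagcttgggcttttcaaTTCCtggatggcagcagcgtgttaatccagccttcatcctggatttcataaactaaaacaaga
Flt1 (chr5:147726012-147726111, - strand): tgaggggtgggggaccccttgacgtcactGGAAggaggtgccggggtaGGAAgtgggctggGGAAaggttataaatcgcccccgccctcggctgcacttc
Ly6c1 (chr15:75048838-75048937, - strand): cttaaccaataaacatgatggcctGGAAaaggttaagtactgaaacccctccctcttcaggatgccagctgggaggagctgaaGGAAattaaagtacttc
Flt1 held 3 matches, Ly6c1 2 and Esm1 1. A match was found in 11 of the 13 endothelial promoters (84.6%) and in 18105 of all 27025 promoters of the same length (67%), so this short motif is common. No other motif was searched, and a match describes letters and not a bound site.

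Of the junction and surface genes, Pecam1 rose in TAC_BIX against sham by 1 of its probes. PECAM1 (CD31) is the adhesion protein most used to mark endothelium. Pecam1 measured 7.21 and 7.56 on the sham arrays, 7.76 and 8.01 on the TAC_DMSO arrays, and 8.33 and 8.92 on the TAC_BIX arrays. The groups did not overlap and stood in the order sham, TAC_DMSO, TAC_BIX. Pecam1 was 2.37-fold higher in TAC_BIX than in sham (1.24 ± 0.25, adjusted p = 0.0327, 1.46e-04 to 0.220 over the alternatives), and the differences of 0.50 ± 0.25 for TAC_DMSO minus sham and 0.74 ± 0.25 for TAC_BIX minus TAC_DMSO did not pass (adjusted p = 0.276 and 0.167). A second probe, annotated to another Pecam1 transcript and detected on all 6 arrays, measured 7.01 and 7.24 on the sham arrays, 6.90 and 7.06 on the TAC_DMSO arrays, and 7.01 and 7.16 on the TAC_BIX arrays. Its groups overlapped, its TAC_BIX difference from sham was -0.04, and with the probes averaged the difference was 0.60 (adjusted p = 0.110).

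Cdh5, the gene of VE-cadherin, which holds endothelial cells together, measured 7.42 and 6.82 on the sham arrays, 7.30 and 7.51 on the TAC_DMSO arrays, and 7.65 and 8.13 on the TAC_BIX arrays. By this probe, which stands for the gene, TAC_BIX lay above both other groups, which overlapped. The TAC_BIX difference from sham was 0.77 ± 0.26 (adjusted p = 0.115). A dimmer Cdh5 probe, detected on all 6 arrays, gave another pattern. Its TAC_DMSO arrays (6.51 and 6.59) lay above both sham arrays (6.05 and 5.78) and overlapped the TAC_BIX arrays (6.48 and 6.66). It gave 0.64 for TAC_DMSO minus sham, 0.66 for TAC_BIX minus sham and 0.02 for TAC_BIX minus TAC_DMSO. Robo4, a guidance receptor gene that stabilises vessels, measured 9.14 and 8.29 on the sham arrays, 9.39 and 9.68 on the TAC_DMSO arrays, and 9.72 and 9.87 on the TAC_BIX arrays, with a difference of 1.08 ± 0.28 for TAC_BIX minus sham (adjusted p = 0.0636). For the constricted groups together, Pecam1 (0.87 ± 0.21) and Esam (0.78 ± 0.19) also came close to the threshold (adjusted p = 0.0613 and 0.0618). Esam, a junction adhesion gene, differed from sham by 0.81 and 0.76 (adjusted p = 0.107 and 0.0842), with all constricted arrays at 9.71 to 9.93 and sham at 9.30 and 8.75. Icam2, an adhesion gene that leukocytes bind, differed by 0.99 and 0.77 (adjusted p = 0.151 and 0.197). The sialomucin gene Emcn differed by 0.15 and 0.55 (adjusted p = 0.694 and 0.137). Cldn5, a tight junction gene, differed by 0.46 ± 0.35 in TAC_DMSO and 0.00 ± 0.35 in TAC_BIX (adjusted p = 0.480 and 1.00).

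By their medians against sham, the genes of enzymes, channels and adaptors differed least of the role groups. Nos3, the endothelial nitric oxide synthase gene, differed from sham by 0.11 ± 0.24 in TAC_DMSO and 0.17 ± 0.24 in TAC_BIX (adjusted p = 0.836 and 0.709). Dimmer Nos3 probes detected on all 6 arrays gave 0.21 and 0.16, and 0.58 and 0.40. By the last of these probes the constricted arrays (6.46 to 6.79) lay above both sham arrays (6.31 and 5.94). The water channel gene Aqp1 differed by -0.17 and -0.21 (adjusted p = 0.723 and 0.640), and all its probes were below 0 for the constricted groups together. Rasip1, a Ras-binding adaptor needed for vessel lumens, differed by 0.28 and 0.43 (adjusted p = 0.362 and 0.154).

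**Figure D3:**
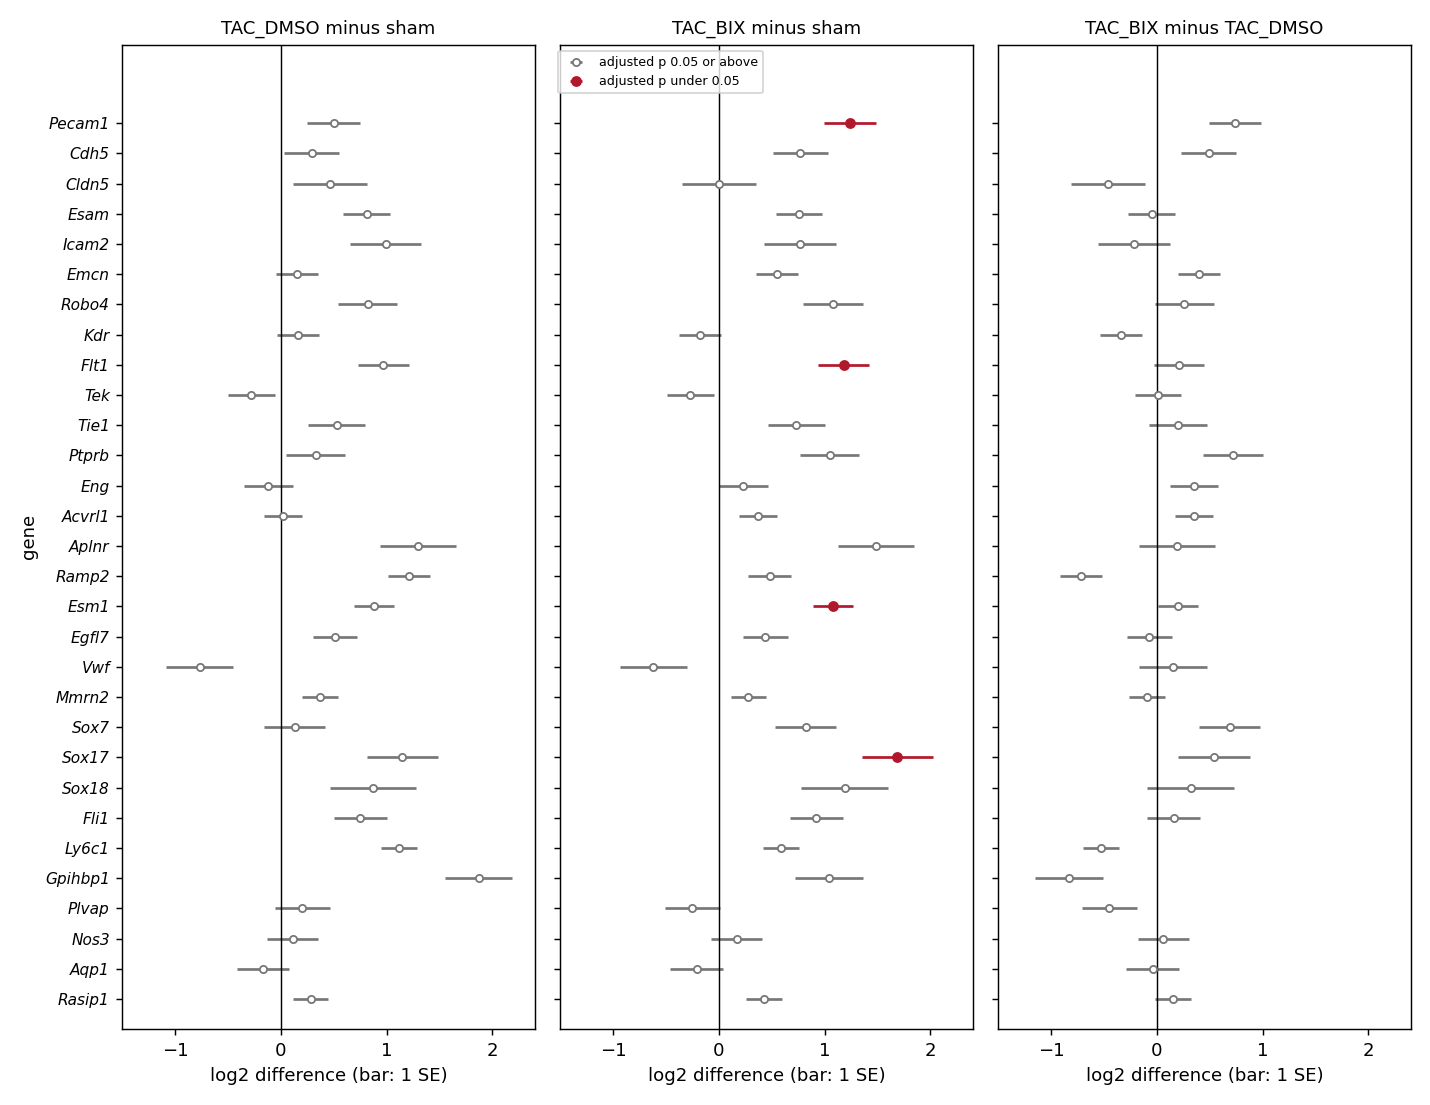
Log2 difference of each of the 30 endothelial genes (rows) in 3 comparisons, with bars of 1 standard error from the model; filled red points passed an adjusted p under 0.05. Most points lie right of 0 against sham (26 of 30 for TAC_DMSO and 25 for TAC_BIX), and Pecam1, Flt1, Esm1 and Sox17 are filled in the middle panel alone.

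The drug comparison, TAC_BIX with TAC_DMSO, asks how treatment changed these genes after constriction. With 0 genes called in the whole table, it gives values and no calls, although 4 of the alternatives called 563 to 710 genes and, among the 30, Ramp2 or Ly6c1 or both in 3 of these. The difference was above 0 for 19 of 30 genes, beside 53.4% of all genes. The median difference was 0.16, beside 0.03 over all genes, and it fell below 0 without TAC_DMSO replicate 1 (-0.03) or without TAC_BIX replicate 2 (-0.12). By group means, 16 genes stood in the order TAC_BIX, TAC_DMSO, sham, from high to low, among them Pecam1, Ptprb and the 3 SOX genes. A further 8 stood highest in TAC_DMSO and no lower in TAC_BIX than in sham: Esam, Icam2, Ramp2, Egfl7, Mmrn2, Ly6c1, Gpihbp1 and Cldn5, whose TAC_BIX and sham means were both 7.46. The 6 genes with an unadjusted p under 0.05 split evenly: Pecam1, Ptprb and Sox7 were higher with the drug, and Ramp2, Ly6c1 and Gpihbp1 lower, the last by -0.83 ± 0.32 (adjusted p = 0.208). All 3 capillary surface genes lay below their TAC_DMSO level with the drug, Plvap by -0.45 ± 0.26 (adjusted p = 0.382). The measured macrophage and leukocyte markers (9 of 9, median -0.27) and erythroid markers (4 of 4, median -1.31) also had lower means in TAC_BIX than in TAC_DMSO. Only 3 of the 9 and 1 of the 4 were lower without overlap, beside 23% of all genes. Their list medians were highest on single TAC_DMSO arrays, 0.79 on replicate 1 and 2.25 on replicate 2. The part of these markers in the endothelial values was not tested. Without overlap between the groups, 11 of 30 genes were higher with the drug and 6 lower, beside 28.7% and 23% of all genes. None of the gaps between the constricted groups passed the limma test in this fit.

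**Figure D4:**
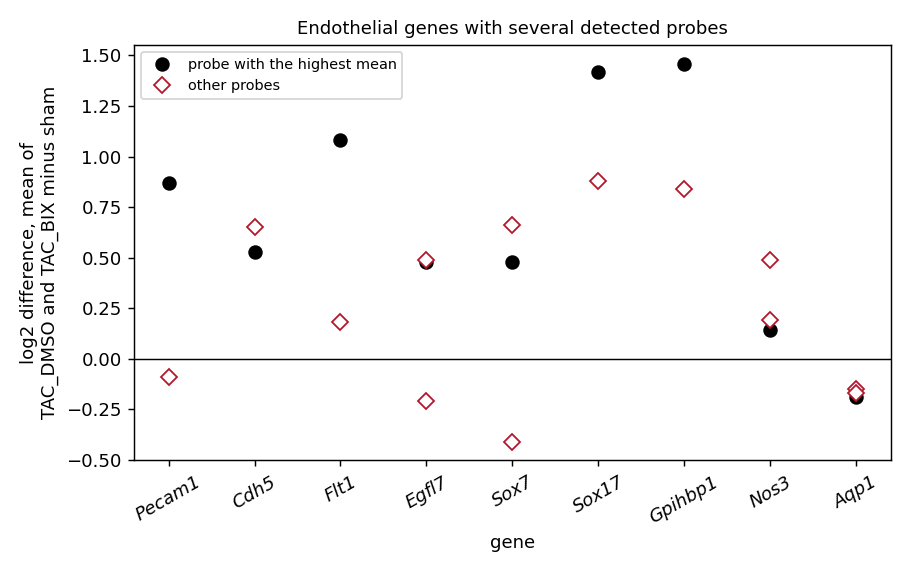
Log2 difference, mean of TAC_DMSO and TAC_BIX minus sham, for the 9 endothelial genes with several detected probes; black circles are the probe with the highest mean, which stands for the gene, and open diamonds the others. Pecam1 shows 0.87 against -0.09, Flt1 1.08 against 0.18, and Sox17 and Gpihbp1 lie above 0 on both probes.

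Against sham, groups did not overlap for 17 genes that were higher and 2 that were lower in TAC_DMSO, beside 24.9% and 29% of all genes. In TAC_BIX these were 21 and 1, beside 29.8% and 28.6%, and for all 4 constricted arrays 16 and 1, beside 15.2% and 16.3%.

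Of 66 genes in 6 lists of vascular ligands, co-receptors, Notch and arterial genes, flow and anticoagulant genes, adhesion genes and lipid uptake genes, 54 were measured. For the constricted groups together, 3 rose, 2 fell and 49 did not pass, with a median of 0.10, beside 2.45% and 2.18% of all genes and a median of -0.02. Cav1, the gene of the caveolar coat, was higher by 1.28 ± 0.20 (adjusted p = 0.0271), Ace, which encodes angiotensin-converting enzyme, by 1.24 ± 0.25 (adjusted p = 0.0411), and the endothelial Notch receptor gene Notch4 by 1.12 ± 0.25 (adjusted p = 0.0496). Klf2, a transcription factor gene induced by blood flow, fell by 0.74 ± 0.15 (adjusted p = 0.0423), and the fatty acid transporter gene Cd36 fell by 0.81 ± 0.15 (adjusted p = 0.0347). In TAC_BIX against sham, Cav1, Ace and Notch4 rose by 1.52, 1.41 and 1.24 (adjusted p = 0.0217, 0.0338 and 0.0470), and Klf2 and its relative Klf4 fell by 0.81 and 0.96 (adjusted p = 0.0391 and 0.0389). In TAC_DMSO against sham and TAC_BIX against TAC_DMSO, 0 of the 54 were called, with 12 and 4 at an unadjusted p under 0.05, beside 2364 and 2090 of all 10538 genes. Without sham replicate 2 or TAC_BIX replicate 2, limma called 0 genes of the whole table in TAC_BIX minus sham and in the mean of both minus sham, so the calls given here and for the marker lists below end there too. The VEGF gene Vegfa measured 12.25 and 11.56 on the sham arrays, 11.11 and 11.44 on the TAC_DMSO arrays, and 11.90 and 11.85 on the TAC_BIX arrays (adjusted p of 0.201 and above in each comparison). Angptl4, the gene of an inhibitor of lipoprotein lipase, measured 6.65 and 6.69 on the sham arrays, 8.78 and 8.10 on the TAC_DMSO arrays, and 6.10 and 6.98 on the TAC_BIX arrays. Its TAC_DMSO arrays stood above all others, by 1.77 ± 0.33 over sham, while TAC_BIX minus TAC_DMSO was -1.90 ± 0.33 (adjusted p = 0.0608 and 0.0652).

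Markers of other cells moved beside the endothelial genes. The endothelial list's median deviation from each gene's mean was -0.15 and -0.54 on the sham arrays, 0.03 and 0.24 in TAC_DMSO, and 0.03 and 0.35 in TAC_BIX, and its summed signal was 9164 and 7437, 10489 and 12199, and 10274 and 12763. For pericyte and smooth muscle markers (12 of 13 measured, Cnn1 not detected) the medians were -0.16 and -0.26, 0.11 and -0.09, and 0.05 and 0.31, with sums of 17977 and 21082, 26202 and 20734, and 26951 and 33188. The pericyte marker Rgs5 measured 6.54 and 5.07 on the sham arrays, 8.27 and 8.79 on the TAC_DMSO arrays, and 8.81 and 9.37 on the TAC_BIX arrays, a rise of 3.01 ± 0.39 for the constricted groups together (adjusted p = 0.0228). Rgs5 was lowest in sham replicate 2 and highest in TAC_BIX replicate 2, the arrays on which 20 and 15 of the 30 endothelial genes had their lowest and highest values. Of the 12 markers, 9 had differences above 0 and 3 below 0 in that comparison. Higd1b passed the test for the constricted groups together (0.84 ± 0.19, adjusted p = 0.0497), but this difference came mostly from TAC_DMSO. TAC_DMSO exceeded sham by 1.33 ± 0.21 (adjusted p = 0.0539), and TAC_BIX by only 0.34 ± 0.21 (adjusted p = 0.359). The TAC_BIX arrays (5.37 and 5.38) lay close to sham replicate 1 (5.32), and Higd1b was detected on 1 sham array. Notch3 rose in TAC_BIX against sham (0.87 ± 0.19, adjusted p = 0.0388). Abcc9, a potassium channel subunit gene of this list, differed by -0.80 ± 0.19 for the constricted groups together (adjusted p = 0.0573). It was bright, at 10.23 and 10.34 on the sham arrays, and which cells gave its signal was not tested.

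Fibroblast markers (11 of 11 measured) had medians of -0.42 and -0.39 on the sham arrays, 0.48 and -0.22 on the TAC_DMSO arrays, and -0.08 and 0.68 on the TAC_BIX arrays, with sums of 10271 and 10037, 15628 and 9778, and 13976 and 21944. In TAC_DMSO the array with more fibroblast signal was replicate 1, while the endothelial genes were higher on replicate 2. Lum and Mfap5, genes of matrix proteins, rose in the constricted groups together by 1.55 and 2.23 (adjusted p = 0.0390 and 0.0334). Macrophage and leukocyte markers (9 of 14 measured) had medians of -0.72 and 0.42, 0.79 and -0.23, and -0.23 and 0.00, with sums of 3385 to 10591, and Ptprc, Itgam and Cd3e did not pass detection. Erythroid markers (4 of 8 measured) varied most, with medians of -0.17 and -1.65, -0.22 and 2.25, and 0.43 and -1.05 and sums from 765 in sham replicate 2 to 29125 in TAC_DMSO replicate 2. In each of the 4 comparisons limma called 0 of the macrophage and 0 of the erythroid markers, with at most 3 and 2 at an unadjusted p under 0.05, where all genes had 2090 to 2781 of 10538. In TAC_BIX minus TAC_DMSO, 9 of 9 macrophage and leukocyte markers and 4 of 4 erythroid markers were below 0, beside 53.4% of all genes above 0.

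Markers of the endocardium, the inner lining of the heart, and of lymphatic vessels had medians below 0 against sham in both constricted groups. Endocardial markers (4 of 5 measured, Hapln1 not detected) had medians of 0.13 and 0.45 on the sham arrays, -0.19 and -0.16 on the TAC_DMSO arrays, and -0.21 and -0.14 on the TAC_BIX arrays, with sums of 797 and 861, 616 and 624, and 576 and 651. Cytl1, a secreted protein gene of the endocardium, measured 8.09 and 7.63 on the sham arrays, 6.89 and 6.88 on the TAC_DMSO arrays, and 6.30 and 6.32 on the TAC_BIX arrays, and fell by 1.27 ± 0.17 in the constricted groups together (adjusted p = 0.0239). Npr3, the natriuretic peptide clearance receptor gene, differed by -0.56 ± 0.15 and the transcription factor gene Nfatc1 by 0.11 ± 0.16 (adjusted p = 0.0777 and 0.705), and the probes of both disagreed in sign. Lymphatic markers (6 of 6 measured) had medians of 0.19 and 0.00, -0.13 and -0.14, and 0.09 and -0.24, with sums of 1140 to 1463, and Ccl21a fell in TAC_BIX against sham by 0.79 ± 0.17 (adjusted p = 0.0368), while Pdpn, which is also made outside lymphatic vessels, differed by 1.17 ± 0.44 (adjusted p = 0.147). For the constricted groups together, 5 of the 6 lymphatic and 3 of the 4 endocardial markers were below 0. Whether the signals of the other lymphatic markers came from lymphatic vessels was not tested either. Cardiomyocyte markers had medians between -0.11 and 0.12, and Tnni3, cardiac troponin I, fell by 0.68 ± 0.15 in the constricted groups together (adjusted p = 0.0495). The part of other cells, or of the number of vessel cells carried through the isolation, in the endothelial differences was not tested.

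**Figure D5:**
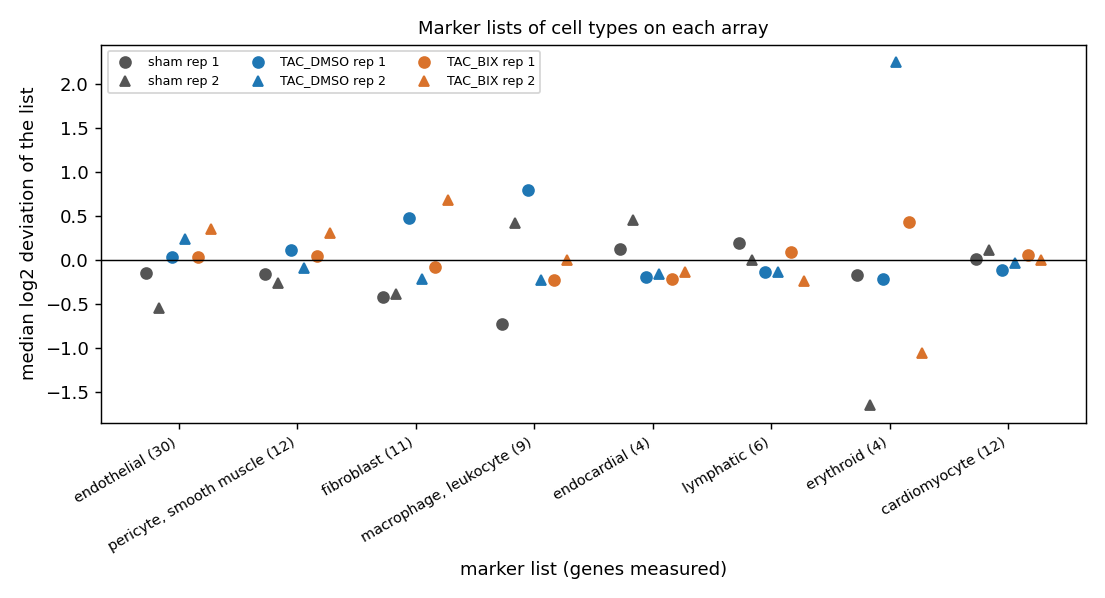
Median log2 deviation of each marker list (the number of measured genes in brackets) on the 6 arrays, circles for replicate 1 and triangles for replicate 2, coloured by group. Endothelial medians run from -0.54 in sham replicate 2 to 0.35 in TAC_BIX replicate 2, endocardial medians are above 0 in sham and below 0 in the constricted groups, and erythroid medians differ widely within each group.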

How the data were processed

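The bead signal intensity deposited by the authors was neither normalized between arrays nor background subtracted (lowest value 87.5), and each signal had a deposited detection p-value. The authors' processed table held log2 values with a median of 7.19 over all arrays together. Its centring and scale are otherwise not given in the sources used here. GenomeStudio 2011.1, lumi and limma are named per the submitters' processing notes, without their roles.

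Signals were background corrected with the detection p-values and quantile normalized by neqc of limma 3.58.1 in R 4.3.3 (offset 16). Probes with a detection p under 0.05 on at least 2 of the 6 arrays and 1 gene in the platform annotation were kept (16446 probes, of 34885 with 1 gene, 18 with several and 10378 with none). The reference gene table was joined by Entrez identifier (34807 probes found) and 0 symbols differed. The kept probe with the highest mean stood for its gene; 4005 of 10538 genes had several. limma (lmFit, eBayes) fitted 1 mean per group over the 6 arrays, with 3 residual and 4.62 prior degrees of freedom. Tests were two-sided, with Benjamini-Hochberg adjustment across all 10538 genes, and genes were called at an adjusted p under 0.05; the 4 comparisons share arrays. The procedure was tested on simulated data. SE is the model's.

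Alternatives were an offset of 50, log2 quantile values without background correction, median scaling, the authors' processed values, no detection filter, detection on 4 of 6 arrays, the mean of a gene's probes, an intensity trend with robust prior, a replicate block, and each array left out. By the naming rule, every measured endothelial gene is given. Values on every array are given for the lineage markers Pecam1, Cdh5, Kdr, Tek and Vwf and for the 6 genes with the smallest p per comparison, and up to 3 genes come from each other list. Sox18, Esam and Vegfa (array values), Klf2, Abcc9, Des and Nfatc1 are shown outside that rule, after their values were seen. The members and lists were chosen with earlier results of these data known.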

Additional observations from a re-analysis of the deposited data

How the results depend on the processing

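Scaling by the array median instead of quantiles put the median of all genes at 0.31 (TAC_DMSO minus sham), 0.23 (TAC_BIX minus TAC_DMSO), 0.53 (TAC_BIX minus sham) and 0.41 (mean of both minus sham), from -0.01, 0.03, 0.00 and -0.02, and the medians of the endothelial genes at 0.78, 0.43, 1.21 and 1.01, which relative to the medians of all genes were 0.47, 0.20, 0.68 and 0.60. It called 956 genes (932 higher, 24 lower), 9, 3771 (3642 and 129) and 3004 (2938 and 66), against 43 (22 and 21), 0, 701 (289 and 412) and 488 (258 and 230), and 13, 0, 23 and 21 endothelial genes. On the authors' processed values the medians were 0.19, 0.06, 0.39 and 0.26, with 93 and 642 genes called in the first 2 comparisons and 2, 1, 4 and 3 endothelial genes. Without background correction, 283 and 710 genes and 3 and 2 endothelial genes were called in the first 2 comparisons, and the medians were 0.41 for TAC_BIX minus sham and 0.33 for the mean of both. An offset of 50 called 275 and 563 genes in the first 2 comparisons, 3 endothelial genes in TAC_DMSO minus sham and 9 in TAC_BIX minus sham. An intensity trend with a robust prior called 426, 699, 1136 and 904 genes, and 5, 1, 9 and 10 endothelial genes. Without a detection filter, 1, 0, 369 and 213 genes and 0, 0, 1 and 2 endothelial genes were called; detection on 4 arrays gave 102 genes and 3 endothelial genes in TAC_DMSO minus sham, and averaging probes 1 in TAC_DMSO minus sham and 4 in the mean of both minus sham. Leaving out 1 array gave 0 to 150, 0 to 6, 0 to 770 and 0 to 576 genes, 0 to 0, 0 to 0, 0 to 5 and 0 to 4 endothelial genes, and medians of 0.31 to 0.70, -0.12 to 0.23, 0.46 to 0.84 and 0.35 to 0.78; the median of TAC_BIX minus TAC_DMSO turned to -0.03 without TAC_DMSO replicate 1 and to -0.12 without TAC_BIX replicate 2, and endothelial genes above 0 in that comparison ran from 12 to 22. Beyond the construction of each setting, the cause of these changes was not tested. Over 10538 genes, the deviations of same-numbered arrays had correlations of -0.24, 0.09 and -0.16 between the groups. The labels do not say whether the numbers pair the arrays, and these correlations cannot settle it. A replicate block called 0, 0, 253 and 40 genes, and 0, 0, 1 and 0 endothelial genes. In the comparison where it was called, each called gene kept its direction under all 15 alternatives. Of 446 values per comparison over all 30 genes, 14, 25, 9 and 16 had the opposite sign, each for a gene not called in that comparison. Signs were taken from values rounded to 2 decimals, so Cldn5, at 0.00 in TAC_BIX minus sham, could not count there. Signals near the floor of 4.80 to 4.99 limit Kdr, Acvrl1, Fli1, Esm1 and Sox17.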
